A study of Mus musculus with 4 samples.

Results

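The nuclear genes for the subunits of oxidative phosphorylation were examined in cultured mouse forelimb buds. They were chosen by name alone, as every gene of the deposited expression table whose symbol begins with Nduf, Uqcr, Cox4 to Cox8 or Atp5, together with Sdha, Sdhb, Sdhc and Sdhd. This rule took 88 of the 17568 genes in the table, and 79 of them encode subunits: 35 of complex I, 4 of complex II, 8 of complex III, 17 of complex IV and 15 of ATP synthase. The other 9 match by name only. They are the complex I assembly factors Ndufaf1 to Ndufaf7, with Atp5s and Atp5sl. The 88 genes lie on 19 chromosomes, 3 of them on the X chromosome, and the table held 0 genes of the mitochondrial genome.

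The embryos were wild type, of the outbred Swiss Webster strain, and were staged at E10.25 with 31 to 34 somites. Forelimb buds were cultured either as controls or with cyclopamine, an alkaloid that blocks Hedgehog signalling by binding Smoothened, and RNA was taken once culture had ended. Each condition gave 2 libraries, sequenced on the SOLiD platform, which the submitters call biological replicates. The libraries are numbered 1 and 2 in both conditions, and no label says whether a shared number marks a pair. No source used here gives the agent's dose, its vehicle, the hours of culture or how many limbs were pooled, so p-values measure the spread between these libraries.

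The recovered depth of control libraries 1 and 2 was 9779589 and 13555492 reads, and that of cyclopamine libraries 1 and 2 was 12962633 and 12010965 reads. Levels are given as the deposited counts per 1000000 reads (CPM), in which 1 read is worth 0.0735 to 0.103 CPM. Defining genes of limb mesenchyme were present, with 12 of 12 tested and summed levels of 2195 and 2304 CPM in the controls against 2216 and 2562 CPM in cyclopamine. In cyclopamine 8 of these 12 markers were higher, and 7 of 12 markers of limb ectoderm, beside 51.0% of all genes tested. Each list had 1 call, where 0.28% of all genes tested were called. The called genes were both lower. Hoxd13, a patterning gene of the distal limb, fell by 1.11 (SE 0.19) on the log2 scale (limma adjusted p = 0.0189). Fgf8, the growth factor of the limb's apical ridge, fell by 1.64 (SE 0.20), with a limma adjusted p = 0.000973. In the other direction the ectodermal keratins Krt15 and Krt14 differed by 1.30 (SE 0.31, limma adjusted p = 0.171) and 0.82 (SE 0.33, limma adjusted p = 0.711). The keratins Krt18 and Krt5 differed by 0.27 (SE 0.22) and 0.10 (SE 0.23). Wnt7a, also of the ectoderm list and not called, was lower, by -1.06 (SE 0.27, limma adjusted p = 0.227). Fgf10, of the mesenchyme list and not called, was lower by -0.60 (SE 0.16, limma adjusted p = 0.255). It measured 68.0 and 62.2 CPM in the controls, against 46.0 and 39.7 CPM in cyclopamine.

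Oxidative phosphorylation takes place in the inner mitochondrial membrane. Complex I takes electrons from NADH and complex II from succinate, complex III passes them from ubiquinol to cytochrome c, and complex IV hands them to oxygen. Complexes I, III and IV pump protons, and ATP synthase uses the resulting gradient to make ATP. Except for complex II, each complex joins nuclear-encoded subunits to a few that the mitochondrial genome encodes. Many of their promoters carry sites for NRF1 and for the ETS-family factor GABPA.

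The promoters were searched for 3 short motifs on both strands, as a description with no test. RefSeq windows of the 250 bases before the annotated start (GRCm38.p6, the patched form of mm10) were found for 74 of the 88 genes, as 80 windows. The NRF1 half-site GCATGCGC, or GCGCATGC on the other strand, occurred in 9 of these windows (11.2%), against 2.26% of all 32851 promoter windows of the same length. The ETS motif CCGGAAG, or CTTCCGG, occurred in 13 windows (16.2%) against 6.91% of all. The YY1 motif AAGATGGC, or GCCATCTT, occurred in 2 windows (2.5%) against 1.56%. The ETS and YY1 motifs can overlap through the letters AAG, and some windows held more than 1 motif. At least 1 of the 3 was found in 21 of the 80 windows (26.2%) and in 3341 of the 32851 windows of all genes. The windows were also richer in G and C, with a median of 57.4% against 52.4%, and a match is a description of letters, not evidence of binding. For each complex, the stretch nearest the start that overlaps no annotated exon is shown for the gene of highest level per kb that has 1 window and a match there. It is given 5′ to 3′ on the gene's strand, with the matched letters in capitals.
Ndufa6 (complex I, chr15:82354323-82354472, minus strand): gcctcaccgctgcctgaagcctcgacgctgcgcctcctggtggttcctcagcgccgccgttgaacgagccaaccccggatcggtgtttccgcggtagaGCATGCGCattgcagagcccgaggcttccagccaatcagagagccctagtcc
Sdhd (complex II, chr9:50603850-50603909, minus strand): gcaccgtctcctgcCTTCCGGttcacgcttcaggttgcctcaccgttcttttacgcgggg
Uqcrh (complex III, chr4:116075072-116075221, minus strand): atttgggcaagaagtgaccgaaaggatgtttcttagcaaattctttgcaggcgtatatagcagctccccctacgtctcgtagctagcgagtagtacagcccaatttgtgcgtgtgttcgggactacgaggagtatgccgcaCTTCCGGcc
Cox6a1 (complex IV, chr5:115348982-115349129, minus strand): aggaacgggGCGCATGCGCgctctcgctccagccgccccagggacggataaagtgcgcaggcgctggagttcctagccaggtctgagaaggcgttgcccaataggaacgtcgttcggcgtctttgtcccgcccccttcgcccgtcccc
Atp5e (ATP synthase, chr2:174464106-174464255, minus strand): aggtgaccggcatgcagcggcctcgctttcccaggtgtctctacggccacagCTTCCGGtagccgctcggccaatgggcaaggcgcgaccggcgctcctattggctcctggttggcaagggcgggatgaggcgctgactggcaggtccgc
The Ndufa6 stretch holds an NRF1 half-site, and the Sdhd, Uqcrh and Atp5e stretches hold the ETS motif. The Cox6a1 stretch holds 2 overlapping NRF1 half-sites, 1 on each strand, and together they read as a palindrome.

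Reads of all 88 genes were listed, 87 of them above the detection floor of 3 reads in every library, and 86 reached a mean of 1 CPM over the 4 libraries and were tested. On a scale of CPM per kb of transcript, the median was 68.0 over the 88 genes and 5.61 over all genes. By complex it was 178 for ATP synthase, 134 for complex IV, 94.7 for complex III, 63.1 for complex II and 51.4 for complex I. The genes matched by name that encode no subunit had a median of 9.35 CPM per kb. Atp5b, the catalytic beta subunit of ATP synthase, had the highest level at 561 CPM per kb. The genes took 0.857% and 0.772% of the reads of controls 1 and 2, and 0.900% and 0.759% of those of cyclopamine 1 and 2. Each tested gene had at least 55 reads in every library, and the highest count in a library was 15697.

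Cyclopamine left the oxidative phosphorylation genes with 0 calls in limma (13568 genes tested, threshold 0.05 after Benjamini-Hochberg adjustment), where 0.28% of all genes tested were called. The smallest limma adjusted p among the 86 was 0.739, for Ndufa3. At an unadjusted p under 0.05, 1 member was higher and 2 were lower, beside 3.04% of all genes higher and 2.78% lower. edgeR's quasi-likelihood test on recovered reads and DESeq2 called 0 members as well, with 4 and 0 at an unadjusted p under 0.05. In cyclopamine 48 of the 86 were higher and 38 lower, and the median difference was 0.02 on the log2 scale, against 0.00 over all genes. Standard errors ran from 0.14 to 0.27. The 95% limma interval lay within 1.5-fold in either direction for 66 of the 86 genes, and within 2-fold for 86 of 86. The bounds reached -0.90 and 0.98. With 2 libraries against 2, an exact two-sided permutation test of a single gene can reach no p below 0.333.

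The difference between libraries of the same condition had the larger median size, but the measures are not alike. A treatment difference compares means of libraries, and a library difference compares individual libraries. Averaging makes the treatment difference smaller, so the same order would tend to arise without any treatment effect. Over the 86 genes, the median size of the difference on the log2 scale was 0.087 between treatments, 0.162 between the controls and 0.323 between the cyclopamine libraries. Over all genes tested, the same sizes were 0.138, 0.215 and 0.201, so the treatment size was the smallest there too. In 11 of the 86 genes (12.8%) the treatment difference exceeded both differences within a condition, against 21% of all genes. Groups did not overlap for 10 genes that were higher in cyclopamine (11.6%) and for 4 that were lower (4.65%), while the background was 16.8% of all genes higher and 15.8% lower. Most members therefore had overlapping values in the treated and control libraries.

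**Figure D1:**
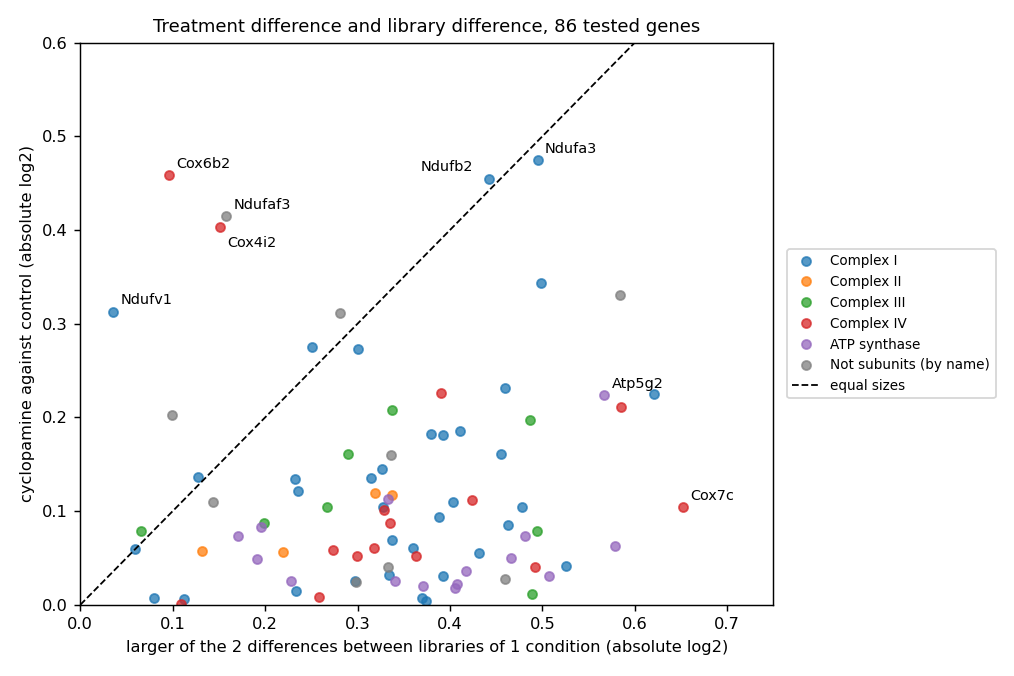
Each point is 1 of the 86 tested genes, coloured by complex; the vertical axis is the size of the log2 difference between cyclopamine and control, and the horizontal axis the larger of the control and cyclopamine library differences. The dashed line marks equal sizes, and 11 genes lie above it, among them Cox6b2, Cox4i2, Ndufaf3 and Ndufv1.

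The library differences had a common direction. Cyclopamine 2 was lower than cyclopamine 1 in 80 of the 86 genes, and control 2 was lower than control 1 in 61, with 57 lower in both pairs. Among all genes tested these shares were 50.7%, 49.4% and 30.7%. For the 77 tested subunit genes the counts were 74, 58 and 55. The median difference between cyclopamine 2 and 1 was -0.32 on the log2 scale, and between control 2 and 1 it was -0.09, where all genes gave -0.00 and 0.01. Summed over the 88 genes, the level was 8644 and 7693 CPM in the controls, against 9199 and 7389 CPM in cyclopamine. Cyclopamine 1 had the highest total and cyclopamine 2 the lowest, so the treated libraries enclosed the controls. The ratio of the summed levels was 0.890 for control 2 over control 1, 0.803 for cyclopamine 2 over cyclopamine 1, and 1.02 for the cyclopamine mean over the control mean. Because of this split, leaving out cyclopamine 1 gave 20 of 86 genes higher in treatment and a median of -0.12. Leaving out cyclopamine 2 gave 72 of 86 and a median of 0.17. Every complex had a median below 0 without cyclopamine 1 and above 0 without cyclopamine 2. The pairs of medians were -0.10 and 0.18 for complex I, -0.12 and 0.07 for complex II, -0.04 and 0.21 for complex III, -0.10 and 0.22 for complex IV, and -0.20 and 0.17 for ATP synthase. Leaving out a control turned the sign for 3 complexes, to 0.02 (without control 1) and 0.00 (without control 2) in complex II, -0.04 (without control 2) in complex IV and 0.11 (without control 1) in ATP synthase. In bulk tissue, fewer cells of a type and less RNA per cell cannot be told apart.

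**Figure D2:**
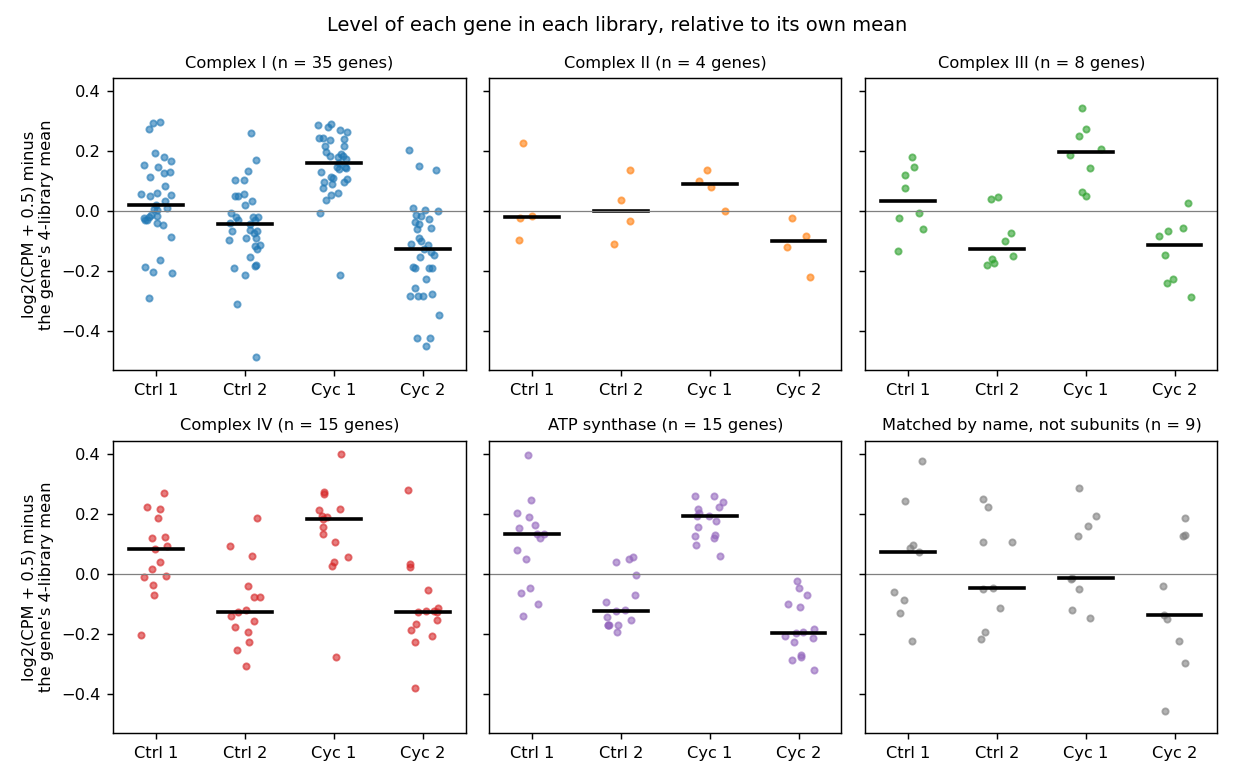
Each point is 1 tested gene in 1 library, plotted as its log2(CPM + 0.5) minus that gene's mean over the 4 libraries, with 1 panel per complex; black bars are medians. In all 5 complexes cyclopamine 1 has the highest median and lies above cyclopamine 2, which matches the lower value of cyclopamine 2 in 74 of 77 subunit genes.

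Complex I, the largest of the complexes and the entry point for NADH, had 35 tested genes and 0 calls. In cyclopamine 19 were higher and 16 lower, with a median of 0.03 on the log2 scale. The library differences had medians of -0.07 in the controls and -0.33 in cyclopamine, and 34 of 35 genes were lower in cyclopamine 2 than in cyclopamine 1. Summed levels were 1966 and 1846 CPM in the controls, against 2128 and 1774 CPM in cyclopamine. Treatment differences, which compare means, exceeded both library differences in 5 of 35 genes (14.3%), against 21% of all genes.

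The widest treatment differences of complex I were in supernumerary subunits, which surround the catalytic core. Ndufa3, a supernumerary subunit (chr7:3617373-3620327 in mm10), measured 30.1 and 21.2 CPM in the controls, against 36.2 and 34.5 CPM in cyclopamine. Both treated libraries were above both controls, and control 2 was the low one. The difference was 0.47 (SE 0.19, limma adjusted p = 0.739), and the controls differed by -0.50 from each other. Ndufb2, another supernumerary subunit (chr6:39592574-39603382), measured 26.1 and 27.3 CPM in the controls, against 22.6 and 16.5 CPM in cyclopamine. The treated libraries were lower without overlap, by -0.45 (SE 0.20, limma adjusted p = 0.813), and they differed from each other by -0.44. Ndufb4 gave 44.1 and 37.2 CPM against 37.9 and 26.7 CPM. Its groups overlapped, with a difference of -0.34.

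Among the core subunits, Ndufv1, the flavoprotein that binds NADH (chr19:4007384-4012806), measured 58.5 and 58.8 CPM in the controls, against 73.9 and 72.1 CPM in cyclopamine. Here the libraries of each condition nearly coincided, at 0.01 and -0.04 on the log2 scale, and the groups were 0.31 apart (SE 0.15, limma adjusted p = 0.864). Its 95% interval ran from -0.00 to 0.63. Ndufs1, the iron-sulfur subunit that carries electrons on from the flavin, had 114 and 121 CPM in the controls, against 122 and 112 CPM in cyclopamine. Its values overlapped.

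Among other complex I genes, Ndufc1 measured 28.2 and 31.1 CPM in the controls, against 39.8 and 32.2 CPM in cyclopamine. Both treated libraries were above the controls, by an amount (0.27) that was less than the cyclopamine library difference of -0.30. Ndufc2, its partner in the membrane arm, had 52.3 and 48.5 CPM against 53.5 and 34.6 CPM. Cyclopamine 2 was the low library, at -0.62 from cyclopamine 1. Per kb, Ndufa7 (114 CPM per kb) and Ndufc1 (104 CPM per kb) had the highest levels in the complex.

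Complex II, succinate dehydrogenase, is the 1 complex whose subunits are all nuclear. Sdha, the flavoprotein that oxidizes succinate, measured 186 and 203 CPM in the controls, against 210 and 195 CPM in cyclopamine. Sdhb, the iron-sulfur subunit, measured 86.7 and 96.5 CPM against 94.0 and 75.3 CPM. The membrane anchor Sdhc measured 86.2 and 68.1 CPM against 73.6 and 67.7 CPM. Sdhd, the other anchor, whose promoter is shown above, measured 70.0 and 69.4 CPM against 78.3 and 67.2 CPM. In each of the 4 genes the groups overlapped, treatment differences ran from -0.12 to 0.06, and cyclopamine 2 was below cyclopamine 1. The 95% interval of all 4 lay within 1.5-fold.

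Complex III had 8 tested genes, of which 6 were higher and 2 lower in cyclopamine, with 0 calls and a median of 0.08. All 8 were lower in cyclopamine 2 than in cyclopamine 1, and 7 of 8 were lower in control 2 than in control 1. Uqcrfs1, the Rieske iron-sulfur protein, measured 73.7 and 69.1 CPM in the controls, against 92.8 and 73.3 CPM in cyclopamine. Cyclopamine 1 was well above the rest, and the other 3 libraries lay close together. Uqcrb, a small supernumerary subunit, measured 99.0 and 89.3 CPM against 128 and 91.1 CPM, with the same single high library. Uqcrc2, a core subunit, had 203 and 170 CPM against 219 and 182 CPM, and the groups overlapped. In Uqcrc1 alone they did not, at 117 and 112 CPM in the controls, against 122 and 120 CPM in cyclopamine. Its treatment difference of 0.08 (SE 0.14) exceeded both library differences. That 1 gene is 12.5% of the complex, against 16.8% of all genes higher without overlap and 21% above both library differences. Uqcrh, the acidic hinge protein that helps cytochrome c dock, had the complex's highest level at 255 CPM per kb. Its libraries gave 157 and 129 CPM in the controls, against 160 and 113 CPM in cyclopamine. Uqcr11, the lowest per kb at 40.0, gave 19.3 and 18.2 CPM against 18.5 and 15.1 CPM.

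Complex IV, cytochrome c oxidase, had 15 tested genes, 10 of them higher in cyclopamine, with 0 calls and a median of 0.04. The library medians were -0.09 in the controls and -0.27 in cyclopamine, and 13 of 15 genes were lower in cyclopamine 2. Several of its subunits exist as duplicated genes used in different tissues or at different oxygen levels. On the per kb scale the general forms were far above the tissue-restricted ones. Cox4i1 stood at 218 CPM per kb and Cox4i2 at 38.2, Cox6b1 at 190 and Cox6b2 at 17.4, and Ndufa4 at 285 and Ndufa4l2 at 8.80. Cox7a2 stood at 138 CPM per kb, Cox7a2l at 127 and the muscle form Cox7a1 at 2.37.

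Of these, Cox4i2 and Cox6b2 were the 2 tested genes of complex IV whose groups did not overlap. That is 6.67% of its tested genes in each direction, below the background of 16.8% of all genes higher and 15.8% lower. Cox4i2, the isoform of lung and low oxygen (chr2:152754173-152765037), measured 32.0 and 31.3 CPM in the controls, against 22.6 and 25.1 CPM in cyclopamine. Both treated libraries were below both controls, by -0.40 (SE 0.18, limma adjusted p = 0.81). Cox4i1, its general counterpart, measured 173 and 141 CPM against 188 and 149 CPM, with overlap and a difference of 0.10. Cox6b2, the isoform known from testis (chr7:4751792-4753094), measured 8.15 and 7.86 CPM in the controls, against 10.8 and 11.6 CPM in cyclopamine. Here both treated libraries were above both controls, by 0.46 (SE 0.24, limma adjusted p = 0.89). Cox6b1, the general form, measured 140 and 104 CPM against 120 and 105 CPM, with overlap and a difference of -0.11. Neither restricted form passed the test, and whether the members of a pair differ in their response was not tested.

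**Figure D3:**
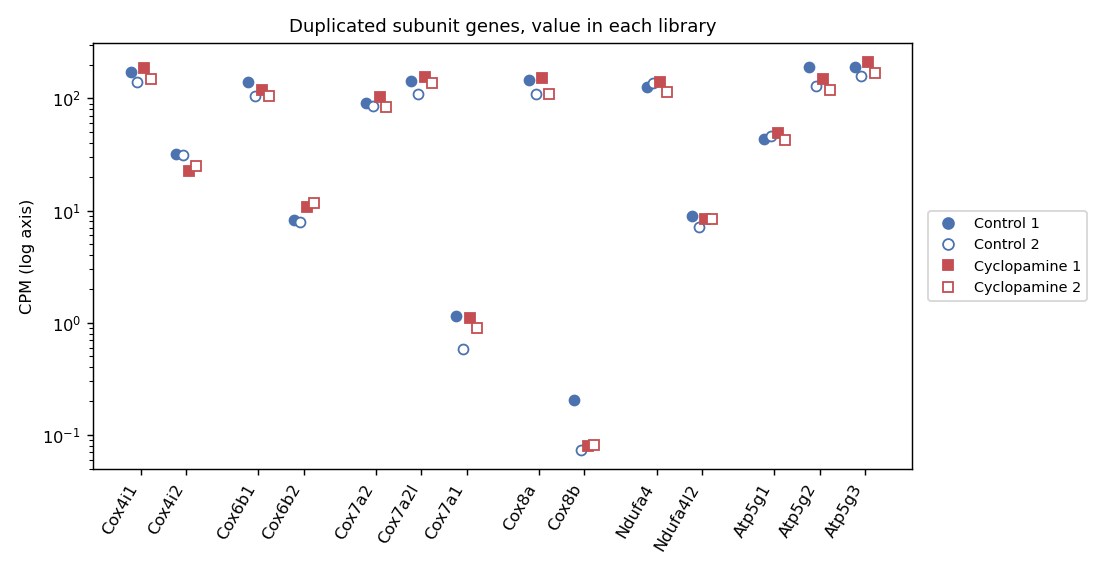
Values in each library, in CPM on a log axis, for duplicated subunit genes grouped by family; circles are controls and squares cyclopamine, filled for library 1 and open for library 2. Cox4i2 has both squares below both circles, Cox6b2 has both squares above, and the ATP synthase genes Atp5g1, Atp5g2 and Atp5g3 overlap; levels of different genes are not corrected for length here.

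Ndufa4l2, a gene known to be induced by hypoxia, measured 8.98 and 7.20 CPM in the controls, against 8.36 and 8.35 CPM in cyclopamine. The treated libraries fell between the controls. Ndufa4, a subunit first assigned to complex I, measured 125 and 137 CPM against 139 and 115 CPM. Cox7a2l, which joins complexes III and IV into supercomplexes, measured 143 and 109 CPM against 155 and 138 CPM, a difference of 0.23 (SE 0.16) with overlap. Cox6c measured 53.0 and 50.5 CPM in the controls, against 73.5 and 48.9 CPM in cyclopamine, so cyclopamine 1 alone was high. Cox7c had the largest cyclopamine library difference, at -0.65, with 83.1 and 65.3 CPM against 85.99 and 54.5 CPM. Cox8a, the general form of that subunit, gave 145 and 109 CPM in the controls, against 153 and 109 CPM in cyclopamine.

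The remaining complex IV genes showed little beyond the library pattern. Cox5a had 110 and 115 CPM against 123 and 95.5 CPM, and Cox5b, which binds zinc, had 124 and 117 CPM against 125 and 116 CPM. Cox6a1, with the paired NRF1 half-sites, had 137 and 115 CPM in the controls, against 138 and 115 CPM in cyclopamine. Cox7a2 gave 91.7 and 86.03 CPM against 103 and 83.0 CPM, and the X-linked Cox7b gave 122 and 117 CPM against 143 and 113 CPM. All of these groups overlapped.

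A pair of muscle isoforms fell below the filter of a mean of 1 CPM. Cox7a1, just under it, measured 1.13 and 0.59 CPM in the controls, against 1.10 and 0.89 CPM in cyclopamine. Cox8b measured 0.206 and 0.0735 CPM against 0.0789 and 0.081 CPM, which is no more than 2 reads in any library and under the detection floor of 3 reads. No difference was detectable for it at this depth. The tested member nearest the filter was Ndufaf3, the assembly factor with the lowest mean, at 6.78 CPM.

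ATP synthase had 15 tested genes, 7 higher and 8 lower in cyclopamine, with 0 calls and a median of -0.02. It had the widest library differences of the complexes, with medians of -0.27 in the controls and -0.37 in cyclopamine. In 15 of 15 genes cyclopamine 2 was below cyclopamine 1, and in 11 of 15 control 2 was below control 1. Summed levels were 3847 and 3271 CPM in the controls, against 4036 and 3111 CPM in cyclopamine. In 0 of the 15 genes did the treatment difference, which compares means, exceed both library differences, against 21% of all genes.

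The catalytic head shows this at high depth. Atp5b, the catalytic beta subunit (chr10:128083273-128090391), measured 1169 and 959 CPM in the controls, against 1238 and 933 CPM in cyclopamine. The means were 1064 ± 148 CPM (SD, n = 2) and 1086 ± 216 CPM (SD, n = 2), and their log2 difference of 0.02 lay within a 95% interval from -0.43 to 0.48. Atp5a1, the alpha subunit, measured 893 and 770 CPM against 917 and 724 CPM. In both genes the libraries numbered 1 were high and those numbered 2 low, whatever the treatment.

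The membrane rotor contains the c subunit, whose mature protein is encoded by 3 genes that differ in their import sequences. Atp5g2 stood at 332 CPM per kb, Atp5g3 at 254 and Atp5g1 at 65.8. Atp5g2 measured 189 and 128 CPM in the controls, against 150 and 118 CPM in cyclopamine, a difference of -0.22 (SE 0.19) beside a control difference of -0.57. Atp5g3 measured 191 and 158 CPM against 211 and 167 CPM. Atp5g1 measured 43.4 and 46.7 CPM against 49.6 and 42.3 CPM. The groups overlapped in all 3 genes. In the stalk, Atp5o, the subunit that gives oligomycin sensitivity, measured 165 and 147 CPM against 170 and 157 CPM. Atp5j, coupling factor 6, measured 73.7 and 84.4 CPM against 88.9 and 78.5 CPM, again with overlap.

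The 9 genes that match by name without encoding a subunit had 6 lower in cyclopamine 2, 3 lower in control 2 and 2 lower in both, beside shares of 50.7%, 49.4% and 30.7% over all genes tested. Whether they differ from the subunit genes was not tested. Of these genes 4 were higher and 5 lower in cyclopamine, with 0 calls and a median of -0.03. Ndufaf3, an early assembly factor of complex I, measured 5.67 and 5.80 CPM in the controls, against 8.28 and 7.37 CPM in cyclopamine, a difference of 0.41 (SE 0.26) without overlap. Ndufaf2, which acts late in assembly, measured 19.6 and 21.6 CPM against 18.2 and 14.9 CPM, lower without overlap by -0.31 (SE 0.20). Ndufaf7 was also lower without overlap, at 16.9 and 17.0 CPM against 15.2 and 14.2 CPM. Ndufaf6 gave 12.4 and 9.11 CPM against 10.33 and 6.73 CPM, Ndufaf1 gave 19.9 and 25.3 CPM against 19.5 and 20.6 CPM, and Ndufaf5 gave 18.9 and 13.6 CPM against 18.2 and 13.5 CPM.

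The wider list of complex I assembly factors, which includes the Ndufaf genes, had 15 tested genes and 0 calls. Of these 5 were higher and 10 lower in cyclopamine, and the median was -0.20, while the 35 subunit genes they serve had a median of 0.03. Treatment differences exceeded both library differences in 8 of the 15 (53.3%), against 21% of all genes. Groups did not overlap for 7 that were lower (46.7%) and 3 that were higher (20%), beside 15.8% and 16.8% of all genes. Tmem186 had the smallest p in the list, at 34.4 and 36.6 CPM in the controls, against 27.5 and 27.8 CPM in cyclopamine. Its difference was -0.35 (SE 0.17). The 24 tested assembly factors of complex IV had 0 calls, 10 higher and a median of -0.02. In limma 0 genes of the first list and 1 of the second, Coa4, had an unadjusted p under 0.05. Whether assembly factors and subunits differ from each other was not tested.

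Other genes that supply the respiratory chain also had 0 calls in limma. Cycs, the mobile carrier cytochrome c, measured 97.1 and 124 CPM in the controls, against 120 and 84.3 CPM in cyclopamine. The 7 carriers of electrons, phosphate and adenine nucleotides had 0 calls and a treatment median of 0.03, and all 7 were lower in cyclopamine 2 than in cyclopamine 1. The 18 enzymes of the citric acid cycle and the pyruvate dehydrogenase complex had 0 calls, a treatment median of 0.02 and a cyclopamine library median of -0.20. The 17 tested regulators of mitochondrial biogenesis had 0 calls and a treatment median of -0.03. Their cyclopamine library median was -0.01. Nrf1, the factor whose half-site is shown above, measured 75.8 and 82.7 CPM in the controls, against 73.8 and 64.2 CPM in cyclopamine. Gabpa measured 86.7 and 100 CPM against 97.7 and 102 CPM, and Tfam, which packages and transcribes mitochondrial DNA, measured 80.4 and 94.0 CPM against 90.2 and 79.9 CPM.

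Genes of the ribosomes showed a library difference too. The 76 mitochondrial ribosomal protein genes had 0 calls, a treatment median of -0.05 and a cyclopamine library median of -0.21, with 71 of 76 lower in cyclopamine 2. The 74 tested cytosolic ribosomal protein genes had 0 calls, a treatment median of 0.01 and library medians of -0.39 in the controls and -0.38 in cyclopamine. In 70 of 74 the libraries numbered 2 were lower in both conditions. In the control pair the median was -0.09 for the subunit genes and -0.05 for the mitochondrial ribosomal genes, against -0.39 for the cytosolic ones. At an unadjusted p under 0.05, limma placed 0 genes of both ribosomal lists, and 0 of the carriers, citric acid cycle enzymes and biogenesis regulators. These medians are descriptions, and the lists were not tested against each other.

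**Figure D4:**
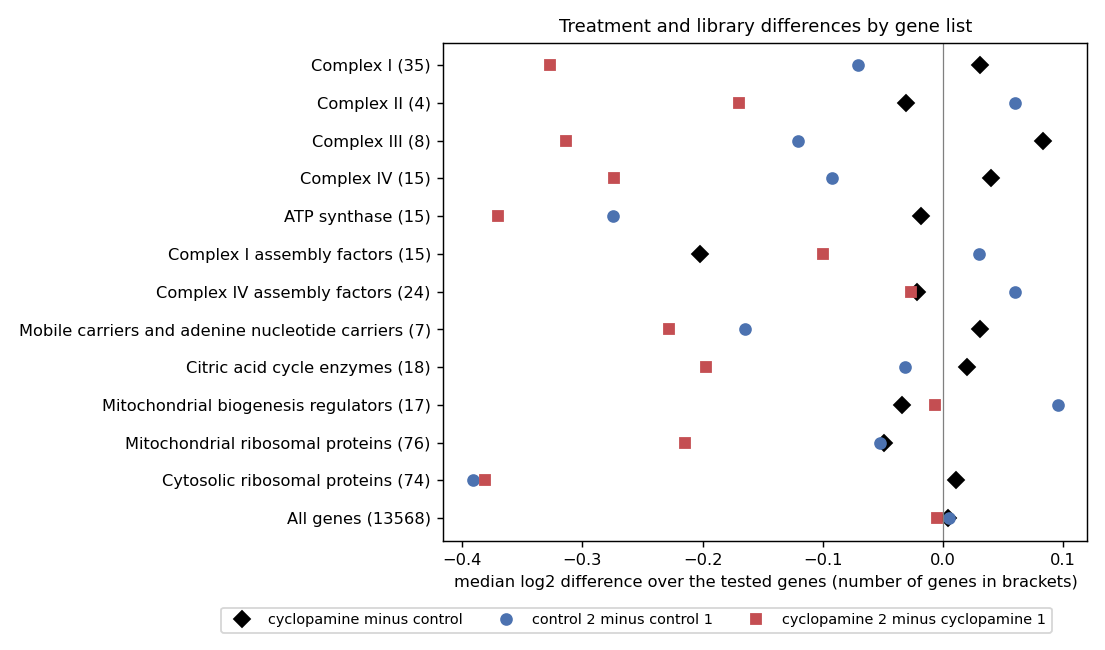
Median log2 difference over the tested genes of each list, for cyclopamine minus control (diamonds), control 2 minus control 1 (circles) and cyclopamine 2 minus cyclopamine 1 (squares). The diamonds of the 5 complexes lie between -0.03 and 0.08, while their squares lie between -0.17 and -0.37 and the squares and circles of cytosolic ribosomal proteins lie at -0.38 and -0.39.

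Markers of other cell types also moved between libraries. Of 12 erythroid markers 9 were listed, and all 9 were tested in limma, with 0 calls and 5 at an unadjusted p under 0.05. In cyclopamine 9 of 9 were higher, beside 51.0% of all genes tested. Their summed level was 1329 and 615 CPM in the controls, against 2166 and 1275 CPM in cyclopamine, led by the embryonic globins Hba-x and Hbb-y, and 0 of the 9 were at 0. The libraries numbered 1 had more of it than their partners, a direction shared with the summed oxidative phosphorylation genes. In 7 of the 9 markers the library numbered 2 was lower in both conditions. The erythroid library medians were -1.16 in the controls and -0.72 in cyclopamine, where the 86 genes gave -0.09 and -0.32. Of 10 neural markers 7 were tested in limma, and all 7 were lower in cyclopamine. The calls numbered 6 of the 7, beside 0.28% of all genes tested. The summed level of neural markers was 43.5 and 74.2 CPM in the controls, against 8.60 and 10.21 CPM in cyclopamine. Ina, Neurod4 and Olig3 were listed at 0 in both cyclopamine libraries. Muscle markers summed to 69.8 and 147 CPM in the controls, against 104 and 195 CPM in cyclopamine, higher in the libraries numbered 2. Of the 11, 9 were tested, with 0 calls and 8 higher in cyclopamine. Endothelial markers, 7 of 7 tested, summed to 372 and 378 CPM against 407 and 473 CPM, with 0 calls and 7 of 7 higher in cyclopamine. Macrophage markers, 6 of 9 tested, summed to 18.8 and 20.3 CPM against 13.0 and 21.5 CPM, with 0 calls and 2 of 6 higher in cyclopamine. The 12 tested markers of limb ectoderm summed to 413 and 357 CPM against 417 and 326 CPM. The part of cell makeup, depth or RNA quality in the differences between libraries was not tested.

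The authors' deposited table of the comparison has a false discovery rate under 0.05 for 0 of the 88 genes, and for 0.455% of its 17568 genes. In the authors' deposited table, unadjusted p was under 0.05 for 2 members, Ndufa3 (log2 fold change 0.47, p = 0.0363) and Cox4i2 (-0.41, p = 0.0452). The smallest false discovery rate of a member in the authors' deposited table was 0.848, for Ndufa3.

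Some values carry a limit from the sequence itself. Transcripts of 24 of the 88 genes match another annotated transcript at 95% identity or more over at least 100 bases, most often a processed pseudogene, and no source used here says how reads with several matches were counted. Atp5g2 matches the pseudogene Gm10231 at 100% over 441 bases, and Ndufb4 matches Ndufb4c at 100% over 390 bases. The 24 genes had a median treatment difference of 0.01 and a cyclopamine library difference of -0.37, and the other genes 0.02 and -0.30. Exons of 28 members overlap a gene on the opposite strand, among them Ndufa3 (with Tfpt) and Ndufb2 (with Braf and Gm16272). No source used here says whether strand was used or how reads in such overlaps were counted, so their effect on the values is not known. Ndufv1, Cox4i2 and Cox6b2 have neither kind of overlap in the GENCODE annotation.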

How the data were processed

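RNA-seq libraries of 2 control and 2 cyclopamine-treated forelimb cultures were grouped by their titles. The deposited expression signal is, from the values, whole reads times 1 constant per library (100% of values within 0.01 of a whole read), that is CPM of an effective library size. A second deposited table holds the authors' log2 fold changes, p-values and false discovery rates, with the test not stated. The mm10 build, edgeR 3.4.2, HTSeq 0.5.4p5, TopHat2 2.0.9, SAMtools and Bowtie are named per the submitters' processing notes, and no source used here gives the annotation. The table holds 25 names turned into dates.

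The 13568 genes whose mean reached 1 CPM were compared with limma 3.58.1 (R 4.3.3) as log2(CPM + 0.5), two-sided, with its intensity trend, adjusted by Benjamini-Hochberg over all of them. Log2 differences are on that scale, which understates changes of low genes. The script was tested on simulated data. The values carry recovered reads, so edgeR 4.0.16 and DESeq2 1.42.0 served as alternatives, beside other scalings, filters, pseudocounts, a replicate block and leaving out each library. Positions, transcript lengths and overlaps came from GENCODE (mm10), promoters from RefSeq. Floors (3 reads) and intervals cover counting or library error only, since reads are not independent molecules. The genes and lists were chosen with earlier results of these data known. Genes named are, in each complex, those of smallest p and of highest level per kb, the largest library differences, all Sdh genes, duplicated genes and those nearest the filter. Ndufs1, list genes and genes behind counts were added after their values were seen.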

Additional observations from a re-analysis of the deposited data

How the results depend on the processing

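With 2 libraries a group, 0 members passed the threshold in limma or under any of the 14 alternatives, and 0 to 6 had an unadjusted p under 0.05; the smallest adjusted p was 0.0851, for Ndufa3 in limma with a replicate block. The labels give the libraries shared numbers but no shared source, so whether a shared number marks a pair is not known. The members' median moved only between 0.02 and 0.03 in the other fits, and from -0.12 to 0.17 with each library left out, where 20 (without cyclopamine 1) to 72 (without cyclopamine 2) of 86 were higher, against 48. Over all genes, 38 passed (6 higher, 32 lower), 2 without a filter (969 at an unadjusted p under 0.05), 0 in limma without the trend (837 at an unadjusted p under 0.05), 20 with scaling by total reads (3 higher, 17 lower), 351 with the replicate block (186 higher, 165 lower), and 43 (24 higher, 19 lower) to 122 (68 higher, 54 lower) with each library left out; the cause was not tested. Without a filter more genes are tested, 17568. Of 44 named tested members, 1 changed sign in edgeR, 1 in DESeq2 and 8 to 14 with a library left out, none of them called.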

Other observations

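Across the 86 tested genes, the control and the cyclopamine library differences had a Spearman correlation of 0.27, and over all genes tested it was 0.30. Both are across genes of the same 4 libraries, which are not independent replicates. Transcript length had a correlation of 0.14 with the control difference, 0.29 with the cyclopamine difference and 0.00 with the treatment difference, over the same genes.

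By complex, at least 1 of the 3 promoter motifs was found in 6 of 33 windows of complex I, 2 of 3 of complex II, 2 of 5 of complex III, 2 of 13 of complex IV and 6 of 17 of ATP synthase. The numbers of windows are small, and no test was made.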
